A study of Mus musculus with 12 samples.

Results

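The 9 genes described here encode transcription factors of the megakaryocyte (MK) lineage: Gata1, Gata2, Zfpm1, Tal1, Gfi1b, Nfe2, Fli1, Runx1 and Meis1. They were chosen by name, with earlier results of these data known, so the shares of all genes given beside them are a description. Each symbol was matched to 1 Ensembl identifier among the 55536 genes of the count table. All 9 passed the expression filter that left 20263 genes for testing. The cells were MKs of C57BL/6 mice with a Pf4-TdTomato reporter, taken from BM or spleen 5 days after saline or after sepsis caused by injected cecal slurry. Tissue and treatment gave 4 groups of 3 libraries, and each library was made from 300 cells that were positive for CD45, Tomato, CD41 and CD42b and negative for lineage markers. All animals, controls included, carried the reporter. Because the Pf4 promoter drives the Cre recombinase that turns Tomato on, the fluorescence stays in any cell that once expressed Pf4. The paper calls the replicates independent, and its figure legends for these data give n = 3 mice. Which library came from which animal, and whether BM and splenic libraries share animals, is not stated. The p-values measure the spread between libraries.

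MKs arise from stem cells through progenitors that can also form red cells, and their identity is carried by a small set of DNA-binding proteins that often occupy the same regulatory elements. Gata2 and Runx1 act from the stem cell onward, Gata1 with its cofactor Zfpm1 (FOG1) replaces Gata2 during maturation, Tal1 joins them in a complex with Lmo2 and Ldb1, and Gfi1b represses alternative genes. Fli1, an ETS factor, turns on platelet genes together with Gata1, Nfe2 is required late for platelet release, and Meis1 is a homeodomain factor of stem cells and MKs.

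Total counts per library ranged from 7756762 to 27386184. Levels are given in CPM, the count relative to a library size corrected with TMM factors of 0.713 to 1.43, and a count of 0 allowed up to 3 counts, or 0.105 to 0.405 CPM depending on the library, for counting error only. The common dispersion was 2.05, a biological coefficient of variation of 143%. The gene of the reporter's promoter, Pf4, had 9606 to 30581 CPM in BM and 476 to 2439 CPM in spleen. Itga2b, which encodes CD41, had 156 to 435 CPM in BM and 6.43 to 320.5 CPM in spleen. Tubb1, the platelet-specific beta tubulin and a defining gene of mature MKs, was at 0 in 2 of 6 BM libraries and 2 of 6 splenic libraries and reached 18.1 CPM at most. Immunoglobulin and T cell receptor segments took 1.04% to 4.23% of counts in BM and 13.03% to 30.1% in spleen.

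The genes of 2 of these factors, Gfi1b and Tal1, held a GATA motif, letters bound by the products of Gata1 and Gata2, within 250 bases before a transcription start. RefSeq promoters (GRCm38.p6) matched 7 of the 9 genes with 10 start sites, and Fli1 and Nfe2 had no entry. The 250 bases before each start were searched on both strands for AGATAA or TGATAA and their variants AGATAG or TGATAG, and 26.5% of all 32851 windows of that length held at least 1 of them. A link between such a motif and the level of a gene was not tested. The windows with a match, 1 of Gfi1b and 1 of Tal1 among the 10 searched, are shown. Each is given 5′ to 3′ in the direction of transcription, with the motif in capitals.
Gfi1b, minus strand, chr2:28621983-28622232: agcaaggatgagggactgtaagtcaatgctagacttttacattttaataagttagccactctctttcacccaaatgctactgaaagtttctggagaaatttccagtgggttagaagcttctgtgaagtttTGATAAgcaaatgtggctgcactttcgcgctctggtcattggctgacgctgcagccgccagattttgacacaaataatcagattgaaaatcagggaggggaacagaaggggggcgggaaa
Tal1, plus strand, chr4:115056176-115056425: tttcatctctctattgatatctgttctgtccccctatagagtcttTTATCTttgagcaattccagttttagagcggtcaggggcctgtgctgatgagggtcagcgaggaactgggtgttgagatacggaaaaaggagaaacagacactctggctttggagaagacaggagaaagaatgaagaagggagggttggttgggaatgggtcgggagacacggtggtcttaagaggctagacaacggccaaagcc
In Gfi1b the match TGATAA lay 120 to 115 bases before the start. In Tal1 the letters TTATCT, which are AGATAA on the other strand, lay 205 to 200 bases before the start, and the second Tal1 start had none. The bases just after the Tal1 start shown were not found in a GENCODE transcript of the gene, and those after the second start were. Of the other motifs, an ETS motif (CCGGAA or CAGGAA, in 35.1% of all windows) was found before Gata1, before Meis1 and before both starts of Runx1. A RUNX motif (TGTGGT or TGCGGT, in 18.6%) was found before Meis1. No window of the 7 genes held the E-box (CAGCTG or CAGATG, 25.5%), the NF-E2 motif (TGAGTCA, 4.46%) or the MEIS motif (TGACAG, 15.9%). A match of letters is a description and not evidence of binding, and these data hold no measurement of binding.

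The first comparison asked how MKs of the 2 tissues differed. All 9 factors had a higher fitted level in BM MKs than in splenic MKs, both after saline and after sepsis, where 43.5% and 45.1% of all genes tested did. After saline, edgeR called 2 of the 9, Zfpm1 and Tal1, against 1.25% of all genes tested and 0.523% that were called higher in BM. After sepsis 4 of the 9 were called, Tal1, Nfe2, Gfi1b and Gata1, against 1.78% of all genes and 0.597% higher in BM. In the average of both conditions 8 of the 9 were called, all but Gata2, against 4.75% of all genes and 2.07% higher in BM. A gene was called when its p in the quasi-likelihood test of edgeR, adjusted over all 20263 genes by the method of Benjamini and Hochberg, was under 0.05. Fold changes are log2 values ± SE from that fit, with 3 libraries in each group, and an adjusted p is that of edgeR unless another tool is named. The median log2 fold change of the 9, BM over spleen, was 2.24 after saline and 4.05 after sepsis, and that of all genes tested was -0.28 and -0.18. The libraries of the 2 tissues did not overlap for 8 of the 9 after saline, where the exception was Runx1, and for 9 of 9 after sepsis, and over all 12 libraries they did not overlap for 7, all but Gata2 and Runx1. Among all genes, the share with BM libraries wholly above splenic ones was 11.3% after saline, 11% after sepsis and 2.56% over all 12 libraries. In this bulk measurement fewer cells that express a gene and less RNA per cell cannot be told apart.

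**Figure D1:**
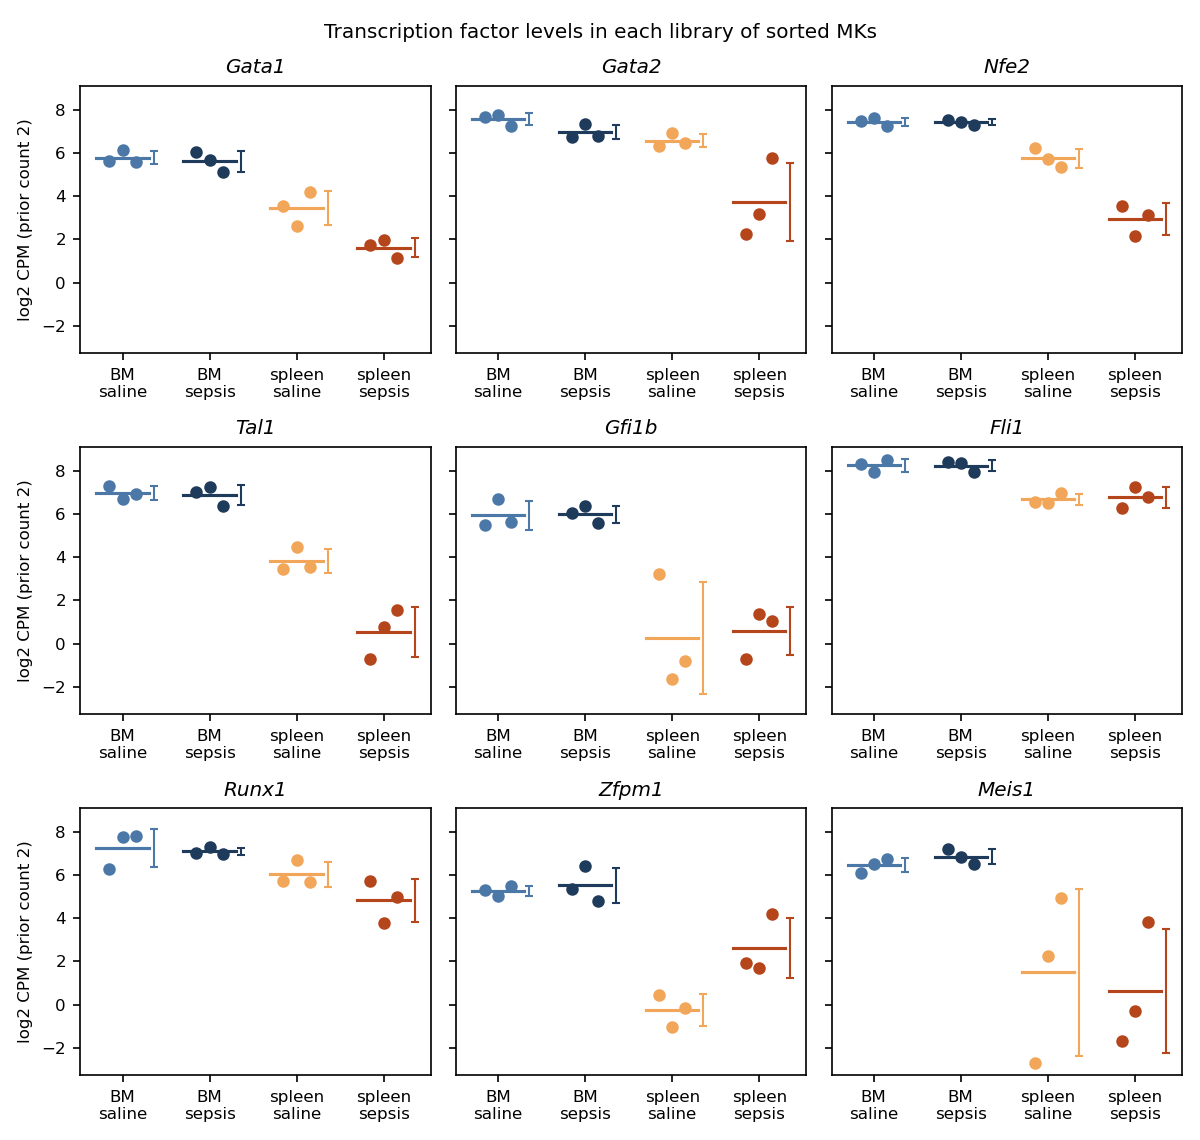
Log2 CPM (prior count 2) of the 9 factors in each of the 12 libraries, by group; points are libraries in the order of their replicate numbers, lines are means and bars to the right of them are SD (n = 3). BM libraries sit above splenic ones for every factor except where single libraries of Gata2 and Runx1 meet, and the splenic libraries after sepsis are the lowest for Gata1, Gata2, Nfe2 and Tal1.

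Gata1 is the GATA factor of maturing MKs and red cells (ENSMUSG00000031162, minus strand of chromosome X between 7959260 and 7978071, GRCm38). It had 48.5, 70.2 and 48.4 CPM in BM MKs after saline and 65.5, 51.0 and 34.2 CPM after sepsis. In splenic MKs it had 11.4, 5.94 and 18.02 CPM after saline and 3.24, 3.81 and 2.04 CPM after sepsis. No splenic library reached the lowest BM library in either condition. The log2 fold change was 2.24 ± 0.78 after saline, which edgeR did not call (adjusted p = 0.237), and 4.05 ± 0.84 (edgeR adjusted p = 0.0141) after sepsis. Without BM sepsis replicate 1 or 2 the second was no longer called (adjusted p = 0.0935 and 0.0531 in edgeR), nor was it with limma-voom (adjusted p = 0.0664).

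Gata2, the GATA factor of stem cells, early progenitors, basophils and mast cells (ENSMUSG00000015053, plus strand of chromosome 6 between 88193891 and 88207032), had the narrowest gap after saline. Its level was 204, 214 and 149.6 CPM in BM after saline, 106, 163 and 111 CPM in BM after sepsis, and 79.7, 120.1 and 88.6 CPM in spleen after saline. In splenic MKs after sepsis the 3 libraries spread over an order of magnitude, at 4.58, 8.96 and 53.7 CPM. The log2 fold changes of 0.98 ± 0.71 and 2.50 ± 0.74 were not called by edgeR (adjusted p = 0.601 and 0.115). Splenic sepsis replicate 3, the library at 53.7 CPM, decided the second value, which was 4.25 (adjusted p = 0.000482) without it, and without it the average was called too (2.64, adjusted p = 0.000176).

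Zfpm1 encodes FOG1, which binds the zinc finger of GATA1 rather than DNA (ENSMUSG00000049577, plus strand of chromosome 8 between 122282141 and 122337251). It had 39.3, 32.4 and 44.7 CPM in BM after saline and 40.4, 84.4 and 27.7 CPM in BM after sepsis. In spleen it was near the limit of detection after saline, with 1.22, 0.330 and 0.751 CPM from 9, 4 and 7 counts, and had 3.598, 3.14 and 18.2 CPM after sepsis. All BM libraries exceeded all splenic ones. The log2 fold change of 5.67 ± 1.11 (edgeR adjusted p = 0.0122) after saline was the widest of the 9 factors in that condition, and limma-voom did not call it (adjusted p = 0.124). After sepsis it was 2.61 ± 0.95 (edgeR adjusted p = 0.260), and 3.93 (adjusted p = 0.0664 in edgeR) without splenic sepsis replicate 3.

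Tal1, the basic helix-loop-helix factor of the GATA complex (ENSMUSG00000028717, plus strand of chromosome 4 between 115056426 and 115071755), had the widest gap after sepsis. BM MKs had 158, 102 and 121 CPM after saline and 130.4, 153 and 82.6 CPM after sepsis. Splenic MKs had 10.8, 21.9 and 11.5 CPM after saline and 0.463, 1.57 and 2.81 CPM after sepsis, the latter from 9, 14 and 29 counts. The lowest BM library was above the highest splenic one in both conditions. The log2 fold change was 3.11 ± 0.71 (edgeR adjusted p = 0.0353) after saline and 6.25 ± 0.83 (edgeR adjusted p = 0.000336) after sepsis. The saline call did not hold when BM saline replicate 1 or 3 or splenic saline replicate 1 or 3 was left out (adjusted p = 0.0715 to 0.114 in edgeR), with RLE factors (0.0711) or with limma-voom (0.0983), whereas the call after sepsis held in all 21 alternatives.

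Gfi1b is a zinc finger repressor needed for MK and erythroid maturation (ENSMUSG00000026815, minus strand of chromosome 2 between 28609450 and 28621982). It had 44.4, 104 and 49.2 CPM in BM after saline and 65.3, 82.1 and 47.8 CPM after sepsis. In spleen it had 9.19, 0.165 and 0.429 CPM after saline, of which the last 2 rest on 2 and 4 counts, and 0.463, 2.47 and 1.94 CPM after sepsis. Splenic saline replicate 1 therefore stood well above the other two. The log2 fold change was 4.35 ± 1.199 (edgeR adjusted p = 0.0926) after saline and 5.33 ± 1.258 (edgeR adjusted p = 0.0301) after sepsis. Without splenic saline replicate 1 the first was 7.90 (adjusted p = 0.000792 in edgeR), and it was also called without BM sepsis replicate 1 or 3 or any 1 of the splenic sepsis libraries (adjusted p = 0.0246 to 0.0472). Without splenic sepsis replicate 1 the second had an adjusted p of 0.0528 in edgeR.

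Nfe2 encodes the large subunit of NF-E2, whose loss blocks platelet release (ENSMUSG00000058794, minus strand of chromosome 15 between 103248212 and 103258403). It was the most even of the factors in BM, with 176, 195 and 151 CPM after saline and 185, 171 and 155 CPM after sepsis. Splenic MKs had 73.7, 51.6 and 40.3 CPM after saline and 11.7, 4.26 and 8.73 CPM after sepsis. The 4 groups overlapped only within BM. The log2 fold change was 1.66 ± 0.56 (edgeR adjusted p = 0.214) after saline and 4.37 ± 0.62 (edgeR adjusted p = 0.000607) after sepsis, and the latter was called in all 21 alternatives.

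Fli1, the ETS factor of MKs that is also expressed in endothelium and in lymphoid cells (ENSMUSG00000016087, minus strand of chromosome 9 between 32422204 and 32542861), had the narrowest gap of the 9 after sepsis. BM MKs had 318, 241 and 357 CPM after saline and 337, 321 and 245 CPM after sepsis, and splenic MKs had 93.9, 89.9 and 124 CPM and 76.9, 153 and 109 CPM. The tissues did not overlap, and the 2 splenic groups did. Its log2 fold changes of 1.57 ± 0.49 and 1.42 ± 0.49 were not called in either condition (adjusted p = 0.157 and 0.220 in edgeR), while their average of 1.49 ± 0.34 was (adjusted p = 0.0135). The average was not called without BM saline replicate 3 or BM sepsis replicate 1 (adjusted p = 0.0680 and 0.0567 in edgeR).

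Runx1, the core binding factor required for definitive hematopoiesis and platelet number (ENSMUSG00000022952, minus strand of chromosome 16 between 92601466 and 92826149), was the factor whose tissues overlapped within a condition. It had 76.0, 213 and 222 CPM in BM after saline and 130.3, 155 and 126 CPM after sepsis. In spleen it had 52.2, 102 and 51.1 CPM after saline and 52.6, 13.6 and 30.9 CPM after sepsis. BM saline replicate 1 lay below splenic saline replicate 2. The log2 fold changes were 1.32 ± 0.62 (edgeR adjusted p = 0.397) and 2.08 ± 0.64 (edgeR adjusted p = 0.133). The average of 1.70 ± 0.45 (edgeR adjusted p = 0.0304) was lost without BM saline replicate 2 or 3, any 1 of the BM sepsis libraries, splenic saline replicate 3 or splenic sepsis replicate 2 (adjusted p = 0.0509 to 0.0999), with RLE factors (0.0603) and with DESeq2 (0.0672).

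Meis1, which binds DNA through a homeodomain (ENSMUSG00000020160, minus strand of chromosome 11 between 18879817 and 19018985), was at 0 in 1 of the splenic libraries. It had 68.0, 91.7 and 106 CPM in BM after saline and 145, 113 and 89.7 CPM after sepsis. Splenic libraries had 0, 4.62 and 30.4 CPM after saline and 0.154, 0.672 and 14.2 CPM after sepsis. The log2 fold changes of 2.92 ± 1.38 and 4.54 ± 1.49 missed the threshold (adjusted p = 0.396 and 0.181 in edgeR). Their average of 3.73 ± 1.0104 was called (adjusted p = 0.0368 in edgeR). The average missed the threshold in edgeR with RLE factors (adjusted p = 0.0544) and when 10 counts were required in 6 or more libraries (adjusted p = 0.0534). Without splenic sepsis replicate 3, which had 14.2 CPM, the difference after sepsis was 8.22 (adjusted p = 0.00489 in edgeR), and it was also called without BM saline replicate 2 or 3 or splenic saline replicate 1 or 3 (adjusted p = 0.0104 to 0.0487). Exons of Gm37818, on the same strand, and of Gm16140, on the other strand, cover 18.3% of the exonic length of Meis1. Strand cannot separate Gm37818 from Meis1, and the library kit does not mark strand. A part of the Meis1 reads could therefore belong to either gene.

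**Figure D2:**
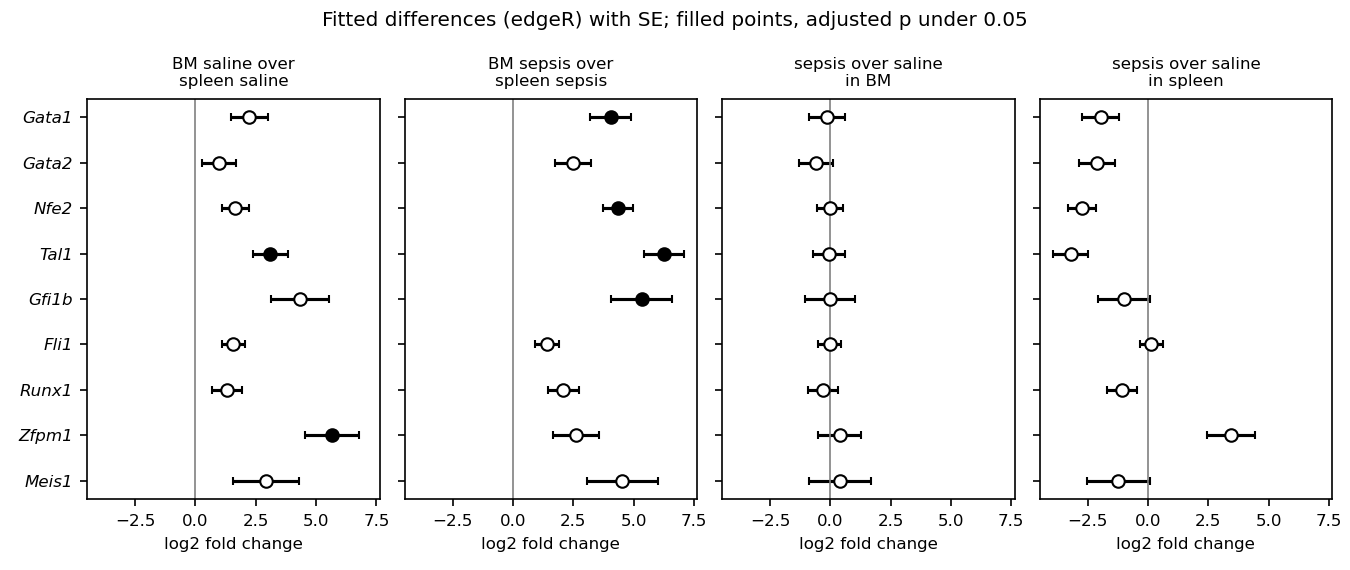
Log2 fold changes of the 9 factors with their SE in 4 pairwise comparisons, from edgeR with 3 libraries per group; filled points had an adjusted p under 0.05. Differences between tissues are BM over spleen and are all above 0, with 2 filled points after saline and 4 after sepsis, and no difference between sepsis and saline is filled.

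The second comparison asked what sepsis did to these factors within each tissue. In BM MKs the 9 factors had log2 fold changes, sepsis over saline, between -0.58 for Gata2 (SE 0.70) and 0.39 for Zfpm1 (SE 0.89), and the libraries of the 2 conditions overlapped for each of them. EdgeR called 0 of the 9 and 0% of all genes, with 717 genes, or 3.54%, at an unadjusted p under 0.05. DESeq2 called 226 genes, none of them a member, and gave no p for Gata2, and limma-voom called 0. The SE ran from 0.48 for Fli1 to 1.28 for Meis1.

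In splenic MKs 4 factors were lower after sepsis in all 3 libraries than in any library after saline: Tal1, Nfe2, Gata2 and Gata1. None of them was called by edgeR, which called 0.158% of all genes and 0.0987% as lower, and 4.51% of all genes had sepsis libraries wholly below the saline ones. Tal1 was at 0.463 to 2.81 CPM after sepsis against 10.8 to 21.9 CPM after saline (log2 fold change -3.20 ± 0.73, edgeR adjusted p = 0.112). Nfe2 was at 4.26 to 11.7 against 40.3 to 73.7 CPM (-2.74 ± 0.58, edgeR adjusted p = 0.0777). These 2 had the smallest p of the 9 in spleen. Gata2 had a log2 fold change of -2.10 ± 0.73 and Gata1 of -1.95 ± 0.77, each with an adjusted p of 0.382 in edgeR.

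Zfpm1 went the other way in spleen, with 3.14 to 18.2 CPM after sepsis against 0.330 to 1.22 CPM after saline and no overlap (log2 fold change 3.45 ± 1.005, edgeR adjusted p = 0.278). Without splenic sepsis replicate 3, the library at 18.2 CPM, the log2 fold change was 2.17. The share of all genes with sepsis libraries wholly above the saline ones was 4.95%. The cofactor of GATA1 was thus measured higher, without a call, in the libraries in which Gata1 itself was lower. Fli1 had a log2 fold change of 0.13 ± 0.48, and Runx1, Gfi1b and Meis1 had -1.08 ± 0.62, -1.004 ± 1.08 and -1.23 ± 1.31, all with overlapping libraries.

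Which of the splenic differences passed the threshold depended on the libraries and the tool. DESeq2 called Nfe2, Tal1, Gata1 and Zfpm1 (adjusted p = 0.000190, 0.00657, 0.0398 and 0.0314). Without splenic saline replicate 3, edgeR called Nfe2 and Tal1 (adjusted p = 0.0367 and 0.0449), and without splenic sepsis replicate 3 it called Tal1 (-3.85, adjusted p = 0.0308) and Gata2 (-3.79, adjusted p = 0.00640). Limma-voom called none of the 9. The tissue by sepsis interaction, the test of whether the response differed between tissues, was called for 0 of the 9 and for 0% of all genes by edgeR, with 1556 genes, or 7.68%, at an unadjusted p under 0.05 and 466 called by DESeq2. Nfe2 (2.71 ± 0.78) and Tal1 (3.14 ± 0.96) had unadjusted p of 0.00254 and 0.00406 and an adjusted p of 0.543 in edgeR, and DESeq2 called the interaction of Nfe2 (adjusted p = 0.0474).

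Per kilobase of exon, Fli1 was the most abundant of the 9 in every group, at 87.6 ± 16.9 CPM per kb in BM after saline, 86.4 ± 14.1 in BM after sepsis, 29.5 ± 5.42 in spleen after saline and 32.4 ± 10.9 in spleen after sepsis (SD, n = 3). Its libraries did not overlap with those of the next factor in any group. Nfe2 came second in BM, at 58.3 ± 7.40 and 57.0 ± 5.16 CPM per kb after saline and sepsis, and second in spleen after saline at 18.5 ± 5.67, where it overlapped with Gata2 at 17.8 ± 3.93. In splenic MKs after sepsis the ranks from Gata2 (4.15 ± 5.03 CPM per kb) down to Tal1 (0.369 ± 0.269) overlapped between neighbours. Meis1 was the lowest in BM at 8.42 ± 1.84 and 11.01 ± 2.63 CPM per kb, overlapping with its neighbour in both groups, and Zfpm1 was the lowest in spleen after saline at 0.219 ± 0.127. These ranks rest on the joined length of all annotated exons of a gene, not on the transcript expressed. That length was 12025 bases for Runx1, 10532 for Meis1 and 1830 to 5398 for the others. In CPM, the mean of Meis1 in BM was above those of Gata1, Gfi1b and Zfpm1 in both conditions.

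The share of each factor within a library does not depend on scaling between libraries. The 9 genes together took 0.107% to 0.184% of all counts in BM, 0.0244% to 0.0372% in spleen after saline and 0.0109% to 0.0249% in spleen after sepsis. Fli1 made up 19.1% to 28.6% of the counts of the 9 in BM, 22.7% to 34.0% in spleen after saline and 45.2% to 79.9% in spleen after sepsis. Each splenic library after sepsis thus had a higher share of Fli1 than any of the other libraries. Gata2 took 8.82% to 17.995% in BM and 24.0% to 30.3% in spleen after saline, and then 2.98%, 4.69% and 22.2% in the 3 splenic libraries after sepsis.

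**Figure D3:**
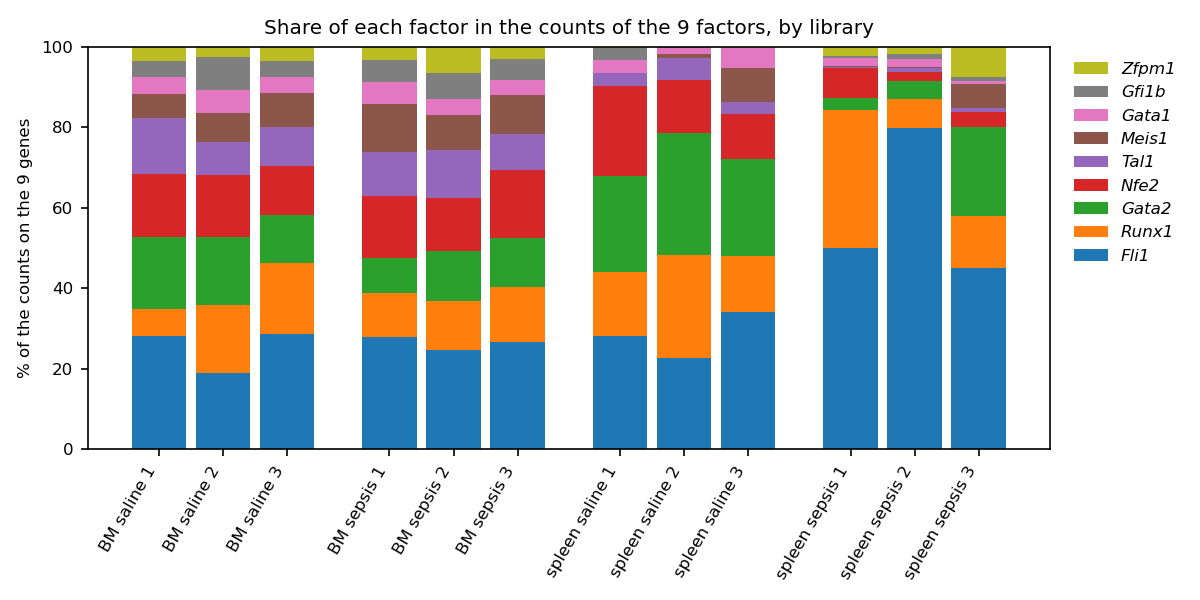
Share of each of the 9 factors in the counts that fell on the 9 genes together, in percent, for each of the 12 libraries. Fli1 (lowest band) takes 19.1% to 34.0% in the first 9 libraries and 45.2% to 79.9% in the 3 splenic libraries after sepsis.

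The number of Gata2 counts per Gata1 count, a ratio within each library, was 4.202, 3.06 and 3.09 in BM after saline, 1.62, 3.19 and 3.24 in BM after sepsis, 7.02, 20.2 and 4.92 in spleen after saline and 1.41, 2.35 and 26.3 in spleen after sepsis. After saline the splenic ratios were all above the BM ratios. After sepsis the splenic libraries lay on both sides of the BM ones, with replicate 3 alone above them.

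Pf4 itself had log2 fold changes between tissues of 3.99 after saline and 4.81 after sepsis, each above those of 7 of the 9 factors, and per count of Pf4 the 9 together were higher in spleen. Counts on the 9 genes were 39.4 to 102 per 1000 Pf4 counts in BM, 149.9 to 685 in spleen after saline and 249.7 to 401 in spleen after sepsis. Without Fli1 and Runx1, which B cells and T cells also express, the other 7 had 24.1 to 64.4 counts per 1000 Pf4 counts in BM, 77.9 to 384 in spleen after saline and 39.3 to 129 in spleen after sepsis. With Gata2 still among the 7, the splenic saline libraries remained above the BM libraries on this scale. The splenic libraries after sepsis overlapped with the BM libraries. Gata2, which basophils and mast cells express, took more of the counts of the 9 in every splenic saline library than in any BM library. With Gata2 left out as well, the splenic saline libraries overlapped with the BM libraries on this scale. Splenic saline replicate 3 then lay below BM sepsis replicates 2 and 3.

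EdgeR called 4.75% of all genes in the average of both conditions. Of 13 genes whose products bind with the 9 factors it called Lmo2 alone, in that average. Their median log2 fold change was 0.067 after saline and 0.65 after sepsis, with 8 of 13 above 0 in both, and single genes ran from -2.61 to 2.56 and from -1.22 to 1.90. Lmo2, the bridge of the Tal1 complex, had 223 to 414 CPM in BM and 10.3 to 159.7 CPM in spleen, with an average log2 fold change of 1.94 ± 0.47 (edgeR adjusted p = 0.0194). Ldb1 and Lyl1, the other members of that complex named here, and Cbfb, the partner of Runx1, were not called in any comparison between tissues, with log2 fold changes from -1.22 to 0.68.

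Of 10 further factors of the MK and stem cell programme, edgeR called 0 after saline and 3 after sepsis. The shares of all genes were 1.25% and 1.78%. Myb, which holds progenitors in cycle, was higher in BM after sepsis (3.97 ± 0.63, edgeR adjusted p = 0.00176) and Etv6, an ETS repressor, was higher too (3.78 ± 0.94, edgeR adjusted p = 0.0427). Ets1, an ETS factor of lymphoid cells, was lower in BM (-2.51 ± 0.58, edgeR adjusted p = 0.0260), with 17.8 to 41.3 CPM in BM and 142 to 180.2 CPM in spleen after sepsis. Erg and Gabpa were not called, with differences between -0.38 and 3.11.

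Of 8 factors that lead other lineages, those of B cells and plasma cells were called lower in BM MKs, where 0.725% of all genes were called lower after saline and 1.18% after sepsis. Ebf1 and Irf4 were called in both conditions (-4.44 and -6.52 after saline, -5.36 and -4.78 after sepsis) and Pax5 after sepsis (-6.42 ± 1.41, edgeR adjusted p = 0.0208). The factors of myeloid and red cells, Spi1, Cebpa, Cebpe and Klf1, were not called. Klf1 was at 0 in all 3 BM libraries after saline and Cebpe in all 3 splenic libraries after saline.

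Over all genes, 0.523% were called higher in BM after saline and 0.597% after sepsis. Of 17 MK and platelet genes to which these factors are known to bind, 5 and 4 were, and none was called lower. Their median log2 fold change was 2.74 after saline and 2.61 after sepsis. Pf4, the chemokine of platelet granules, and Rab27b, which guides granule transport, were called in both conditions. Vwf, Itgb3 and Treml1 were called after saline alone and Ppbp and Tbxas1 after sepsis alone. Itga2b, Gp1ba and Gp9, which encode surface glycoproteins of platelets, were not called in either condition, with log2 fold changes from 1.56 to 4.04. Splenic sepsis replicate 3, which had the highest Gata2, Zfpm1 and Meis1 of its group, also had the highest Itga2b of its group (320.5 CPM, against 6.43 and 19.2 CPM), but the lowest Gata1. The platelet genes were mixed in this library. It was also the highest of its group for Pf4, Gp1ba, Gp9, Gp5, Itgb3, Vwf, Rab27b, Nbeal2 and Treml1. For Ppbp, Gp6, Gp1bb, Tbxas1, Mpig6b and Tubb1 it was the lowest, and for Selp it lay between the others.

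**Figure D4:**
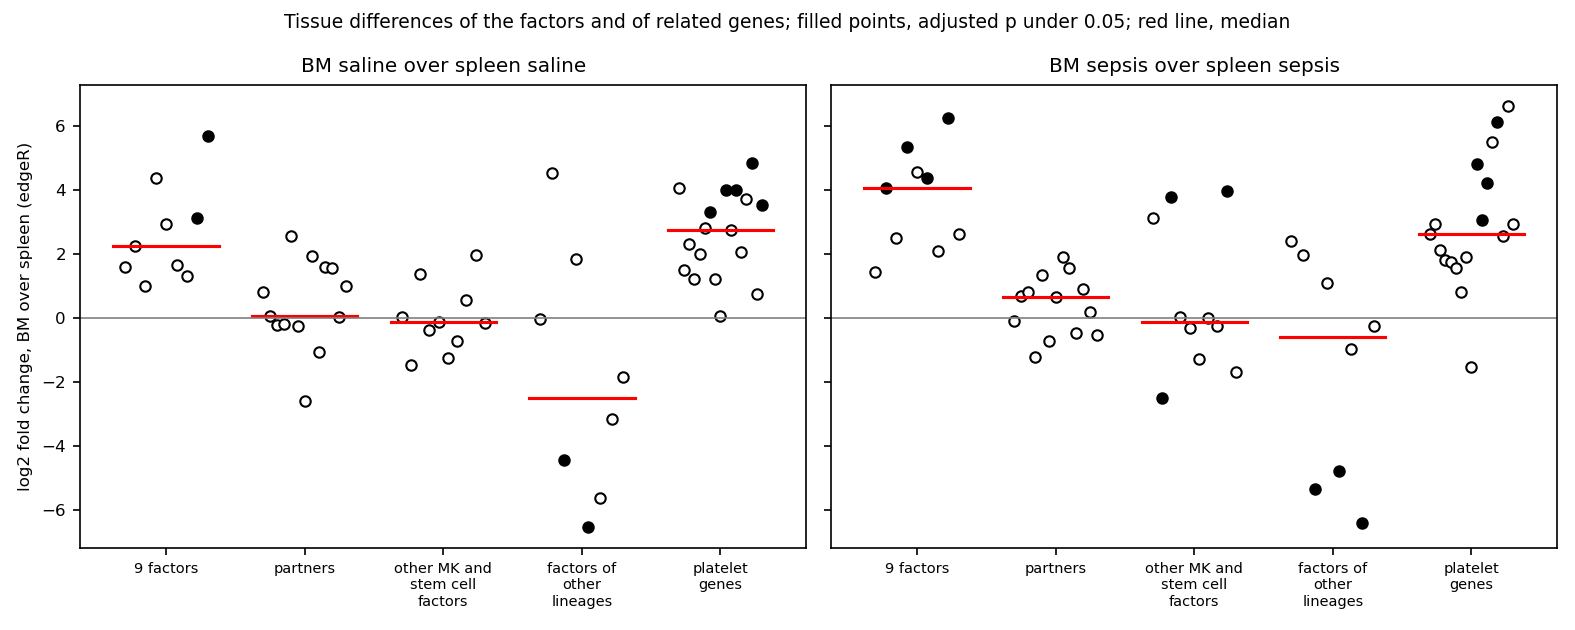
Log2 fold changes between tissues (BM over spleen, edgeR) of the 9 factors, 13 partners, 10 other MK and stem cell factors, 8 factors of other lineages and 17 platelet genes, after saline (left) and after sepsis (right); each point is a gene, filled points had an adjusted p under 0.05 and red lines are medians. All 9 factors and nearly all platelet genes are above 0, and the filled points among factors of other lineages lie below 0. The medians of partners and of other factors lie between -0.14 and 0.65, with single genes on both sides of 0. After sepsis the other factors have filled points above 0 (Myb, Etv6) and below 0 (Ets1).

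B cell and plasma cell genes moved with the tissue. Over all genes, 0.725% were called lower in BM after saline and 1.18% after sepsis, and 4.75% were called in the average. Of 8 B cell markers, 7 were called lower in BM after saline and 8 after sepsis, and their summed level was 61.0 to 266 CPM in BM and 2900 to 10003 CPM in spleen. Of 6 plasma cell markers, 3 were called lower in BM in each condition, with sums of 1479 to 4690 CPM in BM and 7463 to 80709 CPM in spleen. Of 7 T cell markers none was called in either condition and all 7 had log2 fold changes under 0, and Cd3e, Cd3d and Cd8a were called lower in the average, with sums of 6.29 to 103 CPM in BM and 126 to 2029 CPM in spleen. Of 9 neutrophil, monocyte and macrophage markers, Elane, a neutrophil granule protease, was called higher in BM after sepsis (6.32 ± 1.42, edgeR adjusted p = 0.0231), and Elane and Mpo, the myeloperoxidase, in the average. Their sums were 570.3 to 1006 CPM in BM after saline, 3093 to 17010 CPM in BM after sepsis, 1441 to 19837 CPM in spleen after saline and 246 to 9708 CPM in spleen after sepsis, with replicate 1 the highest in both splenic groups. Between sepsis and saline in BM, 8 of these 9 markers had log2 fold changes above 0, with a median of 4.18, and none was called by edgeR. None of these 4 lists had a gene at 0 throughout a group, and their part in the gap between tissues was not tested.

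Basophils and mast cells depend on GATA2, so their genes were set beside its level. Of 9 markers, 3 were called lower after sepsis in spleen, against 0.0987% of all genes. They were Il4 (-7.99, adjusted p = 0.0127 in edgeR), Cpa3 (-5.04, adjusted p = 0.0307) and Ms4a2 (-5.07, adjusted p = 0.0400). Sepsis libraries lay wholly below the saline ones for 8 of the 9, against 4.51% of all genes. The summed level of the 9 markers in spleen was 5314, 3579 and 3162 CPM after saline and 93.9, 42.8 and 692 CPM after sepsis. After sepsis the splenic library with the most Gata2, replicate 3, had the highest sum, whereas after saline the splenic library with the least Gata2, replicate 1, had it. In BM the sum was 11111, 29343 and 5086 CPM after saline and 5591, 2736 and 6682 CPM after sepsis. The BM libraries after saline had the same order in Gata2 and in the sum, with replicate 2 the highest in both. In BM after sepsis the library with the most Gata2, replicate 2, had the lowest sum of its group. After sepsis 6 of the 9 were called higher in BM than in spleen, Kit among them, against 0.597% of all genes. No marker of this list was at 0 throughout a group. In spleen, Tal1, Nfe2 and Gata1 were also wholly lower after sepsis than after saline, without a call by edgeR. The part of such cells in the levels of Gata2 or of any other factor was not tested.

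**Figure D5:**
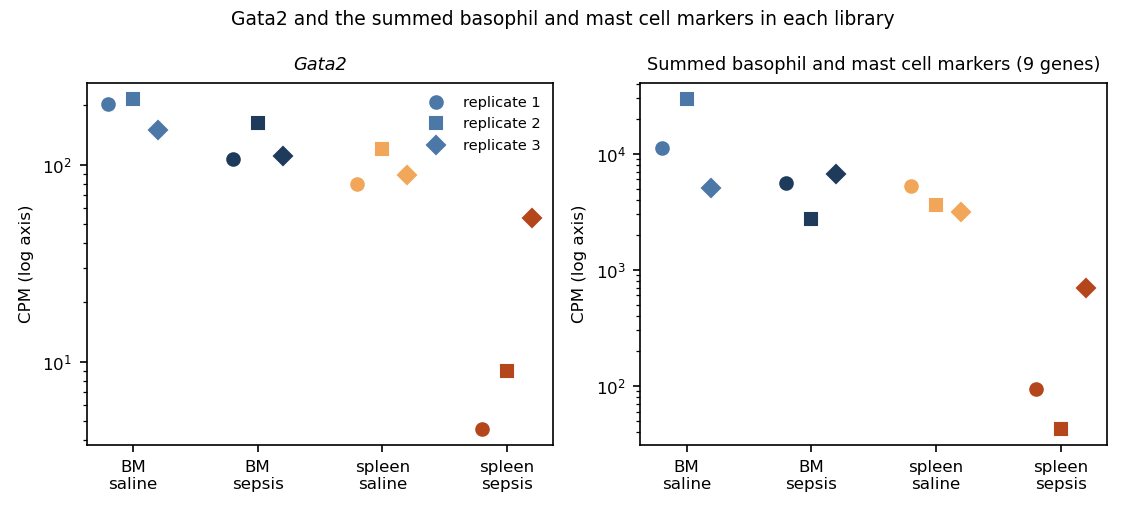
CPM of Gata2 (left) and summed CPM of 9 basophil and mast cell markers (right) in each library, on log axes; colors are groups and symbols are replicate numbers. In spleen both fall between saline and sepsis, from 79.7 to 120.1 CPM to 4.58 to 53.7 CPM for Gata2 and from 3162 to 5314 CPM to 42.8 to 692 CPM for the markers, with replicate 3 the highest after sepsis in both.

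Red cell and progenitor genes were also measured, since Gata1, Tal1, Gfi1b and Zfpm1 serve erythroid cells and Gata2, Runx1 and Meis1 serve progenitors. Of 8 erythroid markers 7 were tested and none was called in either condition, and only Epor was called in the average (adjusted p = 0.0131 in edgeR), with 4.18 to 17.3 CPM in BM and at most 0.107 CPM in spleen. Their sums were 120.4 to 469 CPM in BM and 22.8 to 569.6 CPM in spleen, and Alas2 was at 0 in BM after saline and in spleen after sepsis. Of 7 progenitor markers 6 were tested. Kit, also on the basophil and mast cell list, was called higher in BM after sepsis and in the average. Cd34 was called higher in BM in the average alone (adjusted p = 0.0177 in edgeR). It had 1.59 to 43.6 CPM in BM and at most 2.04 CPM in spleen. Ly6a was called lower in BM in both conditions. Over all genes, 1.78% were called after sepsis and 4.75% in the average. The part of red cells and progenitors in the levels of the 9 factors was not tested.

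The genes most like each factor in pattern were found for the 5 factors called in a pairwise comparison, as the smallest root mean square difference in log2 CPM over the 12 libraries, after each gene was centred on its own mean, among 15220 protein-coding genes. For Gata1 these were Myb (0.519), Cul4a (0.689) and Nfe2 (0.705), against a median of 2.33 over all candidates. For Nfe2 they were Ogfrl1 (0.508), Myb (0.595) and Bex3 (0.653). Gata1 had rank 5 for Nfe2 and Nfe2 rank 3 for Gata1, so these 2 factors were close in both directions, and Myb was near both. For Tal1 they were Ifitm2 (0.828), 1190002N15Rik (0.878) and Lim2 (0.890), with Nfe2 at rank 14 and Gata1 at rank 36. For Gfi1b they were G430095P16Rik (0.914), Dnph1 (0.995) and Cox6b2 (1.05). For Zfpm1 they were Eng (0.773), Treml1 (0.777) and Nanos3 (0.790), and its nearest member was Gfi1b at rank 255. The measure is a description over libraries that share tissue and condition.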

How the data were processed

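RNA from 12 pools of 300 MKs was amplified with the SMART-Seq HT kit and made into Nextera XT libraries. The authors deposited whole-number counts of reads on 55536 genes, without normalization. The submitters' processing notes name STAR 2.7.2b, R 3.6.1, DESeq2 1.26 and GRCm38; how reads were assigned to genes, and with which annotation, is not given in the sources used here. Positions and exon lengths came from GENCODE release M21, which holds all identifiers.

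Depth was 7756762 to 27386184 counts, and the spread between libraries set the precision. In R 4.3.3, edgeR 4.0.16 kept 20263 genes (filterByExpr, minimum count 10) and fitted 1 mean per group with TMM factors (8 residual and 11.1 prior degrees of freedom). Quasi-likelihood p-values were adjusted over all genes by Benjamini-Hochberg, and the SE is the log2 fold change divided by the square root of F. Tests were two-sided. Alternatives were RLE factors, library size alone, no filter, 10 counts in at least 6 libraries, DESeq2 1.42.0, limma-voom (limma 3.58.1) with quality weights, the 6 libraries of a comparison, a block for replicate number, a table without immunoglobulin and T cell receptor segments, and omission of each library in turn. The procedure was tested on simulated data.

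All 9 factors are named, with the first 4 genes and every called gene of the lists of partners, other factors, factors of other lineages and platelet genes. 1 partner and 1 platelet gene are not reported here and were left out of the list counts and medians. Marker genes of other cells are named where they move with a factor. The tables were made with pandas 2.3.3 and the figures with matplotlib 3.10.9. The members and lists were chosen with earlier results of these data known.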

Additional observations from a re-analysis of the deposited data

How the results depend on the processing

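Calls of the 9 factors were limited by the spread between 3 libraries per group. After saline the 2 called factors became 1 with RLE factors, 5 with library size alone, 4 with DESeq2, 0 with limma-voom and 1 to 3 with a library left out. In spleen the 0 called between sepsis and saline became 1 with RLE factors and 1 with the stricter filter (Nfe2 in both), 4 with DESeq2 and 0 to 2 with a library left out. The interaction had 1 call with DESeq2 and 0 otherwise. DESeq2 gave no p for Gata2. Gata2 and Meis1 after sepsis were also called with no filter and with limma-voom, and Gfi1b after saline with library size alone, no filter and DESeq2. After sepsis 3 to 6 of the 9 were called over all alternatives, and in the average 6 to 9. Relative to TMM, RLE factors moved the median log2 fold change of all genes to -0.54 after saline and -0.30 after sepsis, and library size alone to 0.20 and 0.34; no factor changed direction between tissues under any alternative. The 18 pairs of libraries with the same number had correlations of deviations from -0.0566 to 0.0447, so the numbers were not used to pair the libraries. Whether libraries with the same number share an animal is not given in the sources used here. With a replicate block 2, 5 and 9 of the 9 were called after saline, after sepsis and in the average, where Meis1 (6.71, adjusted p = 0.0108) and Gata2 (1.93, adjusted p = 0.0356) were added, and 0 in each comparison of sepsis with saline and in the interaction.

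Signs changed only for values that were not called. In BM, sepsis over saline was 0.031, 0.013 and 0.0099 for Fli1 and 0.094, 0.0086 and 0.0029 for Gfi1b with library size alone, with no filter and without receptor segments. It was 0.0088 for Tal1 with library size alone, and 0.028 and 0.0034 for Nfe2 with library size alone and no filter. With a library left out it ran from -0.14 to 0.13 for Fli1, -0.23 to 0.50 for Gfi1b, -0.23 to 0.17 for Tal1, -0.37 to 0.080 for Gata1, -0.17 to 0.69 for Zfpm1 and -0.10 to 0.086 for Nfe2. In spleen it was -0.022 for Fli1 with RLE factors, -0.024 with DESeq2 and 0.10 for Gfi1b with limma-voom, and with a library left out it ran from -0.12 to 0.38 for Fli1, -4.87 to 1.12 for Meis1 and -1.58 to 2.47 for Gfi1b. The interaction of Gfi1b was -0.13 with limma-voom, and with a library left out it ran from -2.48 to 1.57, that of Fli1 from -0.38 to 0.11 and that of Meis1 from -0.72 to 5.27. The cause of these changes was not tested.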
